A study of Mus musculus with 4 samples.

Results

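The G1 cyclins, the kinases they activate and the transcription factor E2f1 form the switch that takes a cell out of the G1 phase and into DNA replication. The 9 genes described here are Ccnd1, Ccnd2 and Ccnd3 (cyclins D1, D2 and D3), Ccne1 and Ccne2 (cyclins E1 and E2), Cdk2, Cdk4, Cdk6 and E2f1. They were chosen by name: every probe to which the array files gave one of these names was taken, which gave 13 of the 55681 probes and 9 of the 34844 gene names on the array. Of the 9 genes, 8 were above background on at least 1 array, through 12 of the 13 probes.

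The study asked what happens to cardiac mesenchymal progenitors (CMPs) that receive the reprogramming factors Oct4, Sox2, Klf4 and c-Myc (OSKM). CMPs are Sca-1+ cells, taken here from the atria of adult wild-type C57BL/6 mice and first grown on collagen I with serum and bFGF. Before transduction cells were seeded on Geltrex, and the study's methods do not say which coating the control cells had. The CMP control was untreated and is labelled day 0, and the OSKM-CMPs carried all of the factors on Sendai virus and were kept in reprogramming medium without leukemia inhibitory factor until day 4, 6 or 8. RNA of each condition was read on 1 single-colour Agilent mouse array, so there were 4 arrays in all. No untreated cells of a later day were measured, so the factors, the virus, the medium, the time in culture and any change of coating cannot be told apart in any comparison with the control. How many mice or dishes gave the RNA of an array is not given in the sources used here.

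In G1, growth signals raise the D-type cyclins, which activate Cdk4 and Cdk6. These kinases phosphorylate the retinoblastoma protein and its relatives, which then release the E2F factors, and E2F in turn activates the genes of cyclin E, of E2f1 itself and of the DNA replication machinery. Cyclin E with Cdk2 completes the phosphorylation, and in many cell types, among them preadipocytes, leaving this cycle accompanies differentiation.

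Each value below is the processed Cy3 signal of a probe, an intensity in arbitrary units. A difference is that of log2 signals after each array was divided by its 75th percentile, so that -1 is a 2-fold lower level. With 1 array per condition no difference could be tested. The error given after ± is 1 SD from the error model of the scanner software, which covers the spot and not the spread between cultures or RNA preparations, and a difference within 2 such errors is not told from 0. It shrank with the number of probes averaged, being 0.20 for Ccnd1 with 1 probe, 0.14 for Ccnd3 with 2 and 0.12 for Cdk4 with 3. Passing 2 errors therefore also depends on how many probes a gene had. As the RNA came from whole dishes, fewer cells that express a gene and less of its RNA per cell cannot be told apart.

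The 4 arrays were alike in quality. Between 56.6% and 59.6% of probes were well above background, the 75th percentile of signal lay between 388.5 and 411.1, no spot was saturated, and the median SD between repeated spots of a probe was 0.06 to 0.07 on the log2 scale. Of 16658 genes measured, the median difference from the control was -0.01, -0.04 and -0.03 on days 4, 6 and 8. As a check of the progenitor label, all 9 mesenchymal markers were measured, and their median difference at day 8 was -0.54. Thy1 (-1.78), Itgb1 (-1.35) and Eng (-1.19) were at least 2-fold lower, while Ly6a, which encodes Sca-1, was 2.69 higher, with a signal of 9791 in the control and 66890 at day 8. Pdgfra was also higher, by 0.71 ± 0.06. The markers of other cell types also moved: all 8 adipocyte markers were at least 2-fold higher at day 8 (14.4% of all genes), and their summed level went from 5.08 times the 75th percentile in the control to 47.0, 162 and 351 at days 4, 6 and 8. Endothelial markers summed to 1.80 in the control and 1.06 to 1.18 on the OSKM days, and leukocyte markers to 0.556 and 0.707 to 0.840. Of the 5 endothelial markers, 3 were at least 2-fold lower at day 8, against 11.7% of all genes. Tek differed by -2.70 ± 0.27, Cdh5 was at least 11.9-fold lower and Tie1 at least 2.06-fold lower. Kdr (-0.27 ± 0.11) and Pecam1 (0.10 ± 0.16) lay nearer the control. Among the leukocyte markers at day 8, Ptprc (CD45) differed by 0.02, Coro1a was 1.12 higher and Tyrobp at least 1.58-fold lower. Cd68 was 1.56 ± 0.42 higher, though not all of its 2 probes were well above background in the control. The cardiomyocyte sum went from 12.0 to between 4.15 and 6.70 with Tnnt2 (-1.60 at day 8), whereas the other markers lay above the control and the median of the 5 measured was 0.91. Of these, Tnni3 and Myh6 were not well above background in the control, nor Ryr2 there or at day 8. The part of these shifts in the cyclin and kinase values was not tested.

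A set of 3 members stood lower than the control by more than 2-fold at day 8: Ccnd1, Cdk2 and E2f1. None of the 8 measured members stood 2-fold higher on any day. At day 4, 2 members were at least 2-fold lower (Ccnd1 and E2f1), against 9.57% of all genes, and at day 6 there were 3 (with Cdk2 added), against 11.5%. The same 3 were so at day 8, against 11.7% of all genes, while 12.1%, 13.0% and 14.4% of all genes were at least 2-fold higher on these days. The median member differed from the control by -0.71, -0.57 and -0.50 in day order, and the members ran from -1.55 to 0.54 at day 4 and from -1.41 to 0.33 at day 8. Beyond 2 errors, 5, 5 and 4 members were lower on days 4, 6 and 8, against 23.8%, 27.1% and 28.4% of all genes. By the same rule 1 member was higher on each day, Cdk4 at days 4 and 6 and Ccne1 at day 8, against 23.4%, 24.2% and 26.3%.

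**Figure D1:**
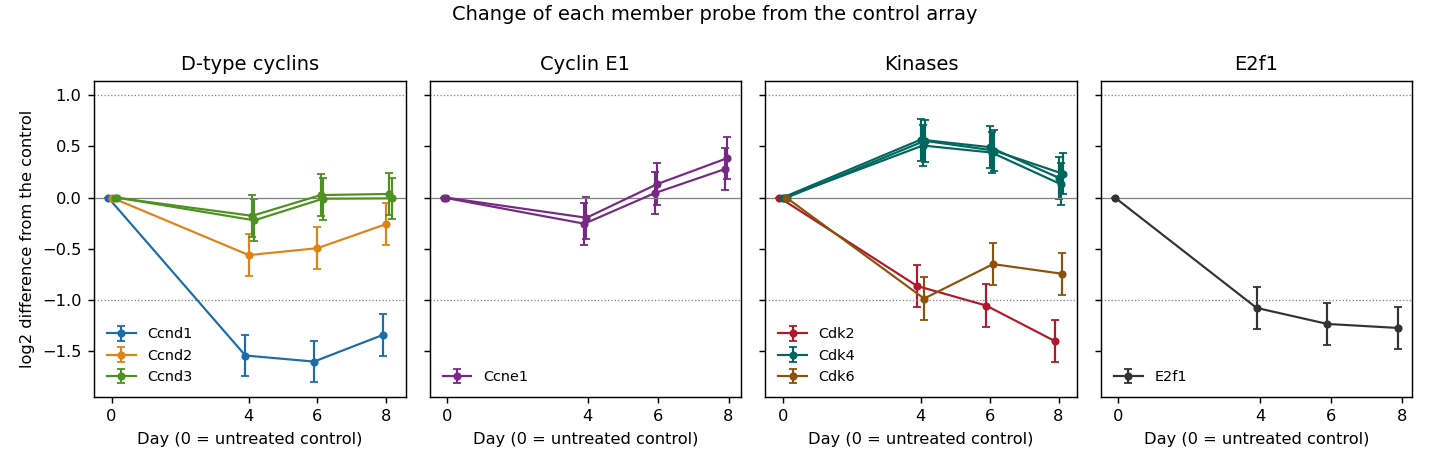
Change of each measured member probe from the CMP control on the log2 scale (vertical axis) against the day of the array (horizontal axis, 0 being the untreated control). Each line is 1 probe and each bar is ± 1 SD of the scanner's error model, with dotted lines at a 2-fold change; Ccnd1, E2f1 and Cdk2 lie below the lower dotted line at day 8, and the 3 Cdk4 probes lie between 0.51 and 0.57 at day 4.

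Cyclin D1, the D-type cyclin that responds most directly to growth factor signals, showed the widest drop of the members at days 4 and 6. The Ccnd1 probe (mm9 chr7:152116202-152116261, minus strand) gave a signal of 98599.5 in the control and 33694, 33831 and 40977 on days 4, 6 and 8. By the reported scaling all of the change was present by day 4, and the OSKM arrays differed little among themselves. The differences from the control were -1.55, -1.61 and -1.35 (each ± 0.20), which left 34.2%, 32.9% and 39.4% of the control level. The day 8 value was -1.03 under quantile normalization, with or without normexp correction, and so passed 2-fold only narrowly there. Of all genes, 5.04%, 5.88% and 8.00% were at least as far below the control on these days. The step from day 4 to day 8 was 0.20 ± 0.20, within its error. It was 0.42 under quantile normalization and 0.44 with normexp correction added, both past 2 errors, so a partial return by day 8 depended on the normalization.

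Cyclin D2, which shares its partners with cyclin D1, was lower to a smaller extent. Its probe (mm9 chr6:127098696-127098755, minus strand) read 44082 in the control and 29770, 32646 and 38871 at days 4, 6 and 8. All OSKM arrays were below the control, and the gap was narrower at day 8 than at day 4. The differences were -0.56, -0.50 and -0.26 (each ± 0.20), and the day 8 value was within 2 errors of 0 and turned to 0.10 under quantile normalization.

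Cyclin D3, the D-type cyclin most tied to differentiating cells such as muscle and fat precursors, stayed near its control level. Its probes lie close together (mm9 chr17:47736267-47736326 and chr17:47736579-47736638, plus strand). The first read 15851 in the control and 13975, 16835 and 17153 at days 4, 6 and 8. The other read 40630 in the control and 34738, 42084 and 42674 on those days, and both probes were lowest at day 4. Averaged over the probes, the differences were -0.20, 0.01 and 0.01 (each ± 0.14), all within 2 errors of 0. At day 8 the value ranged from -0.25 when arrays were scaled to their median to 0.34 with normexp background correction and quantile normalization, so it has no settled direction.

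The D-type cyclins therefore parted. Within each array, where the scaling cancels, Ccnd1 lost 1.35 ± 0.25 more on the log2 scale than Ccnd3 by day 4, with differences of -1.61 and -1.36 at days 6 and 8. Against Ccnd2 the Ccnd1 change was -0.98, -1.11 and -1.09 (each ± 0.29). Between Ccnd2 and Ccnd3 it was -0.36, -0.50 and -0.27 (each ± 0.25), of which that of day 6 alone passed 2 errors, and barely so.

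Cyclin E1, the partner of Cdk2 at the start of replication, took another course. Its brighter probe (mm9 chr7:38882937-38882960, minus strand, of which the files place 24 bases on the genome) read 5138 in the control and then 4470, 5871 and 7085 on the OSKM days. Its dimmer probe (mm9 chr7:38885574-38885633, minus strand) read 146, 122, 157 and 187 in the same order. Both probes were lowest at day 4 and highest at day 8. The gene's mean differed from the control by -0.23 ± 0.15, 0.09 ± 0.15 and 0.33 ± 0.14 on days 4, 6 and 8. When arrays were scaled to their median, the day 6 value became -0.05 and the day 8 value 0.07. The step from day 4 to day 8 was 0.56 ± 0.15, which 11.6% of all genes matched or passed, the largest step upward of a member between OSKM days.

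Cyclin E2, which also activates Cdk2, could not be measured. The single Ccne2 probe (mm9 chr4:11131423-11131482, plus strand) gave signals of 2.05, 2.12, 2.26 and 2.06, none of which was rated well above background, where the lowest signal so rated was 10.4 to 11.6. Whether the RNA was low or the probe weak was not tested.

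Cdk2, the kinase of cyclins E and A, was lower on each later array. Its probe (mm9 chr10:128135658-128135717, minus strand) read 260 in the control and 142, 130 and 103 on the OSKM days in order. These were signals below the array's 75th percentile, yet well above background on every array. The differences from the control were -0.87, -1.06 and -1.41 (each ± 0.21), which left 54.9%, 48.1% and 37.7% of the control level. Of the day 8 difference, 61.6% was present at day 4 and 75.2% at day 6. The further drop from day 4 to day 8 was -0.54 ± 0.21, and 7.56% of all genes were at least as far below the control at day 8. At day 6 the difference was -0.84 with normexp correction, short of 2-fold.

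Cdk4, a kinase of the D-type cyclins, was the member that stood above the control at day 4. The 3 probes (mm9 chr10:126504174-126504233, chr10:126503162-126503221 and chr10:126504279-126504338, plus strand) moved together. In the control and at days 4, 6 and 8, the first read 12784, 18894, 18795 and 15442. The second read 7719, 10964, 10937 and 8929, and the last 28169, 41304, 40466 and 34985. In each of them days 4 and 6 were highest and day 8 lay between these and the control. The mean difference was 0.54, 0.46 and 0.19 on days 4, 6 and 8 (each ± 0.12). The day 8 value was within 2 errors of 0, and it was -0.08 when arrays were scaled to their median. Of all genes, 20.7% stood at least as far above the control at day 4 and 38.1% at day 8. From day 4 to day 8 the level dropped by 0.36 ± 0.12, but under quantile normalization this step was -0.21, within 2 errors.

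Cdk6, the other kinase of the D-type cyclins, was lower on all OSKM arrays. Its probe (mm9 chr5:3522106-3522165, plus strand) read 184 in the control and 92.5, 122 and 116 at days 4, 6 and 8. The lowest level was at day 4, and no OSKM array reached the control. The differences were -0.99, -0.65 and -0.75 (each ± 0.21), and 9.72%, 18.7% and 16.6% of all genes were at least as far below. The day 4 value was just short of 2-fold. It was -1.05 under quantile normalization and -0.70 with normexp correction added. The day 8 value was -1.01, past 2-fold, when arrays were scaled to their median. The steps between OSKM days were within 2 errors, 0.34 ± 0.21 from day 4 to day 6 and -0.09 ± 0.21 from day 6 to day 8.

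The Cdk4 and Cdk6 kinases, which phosphorylate the same proteins, thus moved apart. The change of Cdk4 exceeded that of Cdk6 by 1.53, 1.12 and 0.93 on the log2 scale (each ± 0.24) at days 4, 6 and 8. Quantile normalization does not cancel between a bright and a dim gene such as these. Under it Cdk4 differed from the control by 0.45 and Cdk6 by -0.90 at day 8, a wider gap. In the same way Cdk2 and its cyclin parted, as Ccne1 gained on Cdk2 by 0.64, 1.14 and 1.74 (each ± 0.25). Between Ccnd1 and Cdk4, partners in one complex, the change was -2.09, -2.07 and -1.53 (each ± 0.24).

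E2f1, the E2F factor that drives entry into S phase, was lower by day 4 and then kept to a narrow range. Its probe (mm9 chr2:154385798-154385857, minus strand) read 3373 in the control and 1592, 1494 and 1470 at days 4, 6 and 8. The OSKM arrays lay close together and all were well below the control. The differences were -1.08, -1.24 and -1.28 (each ± 0.20), which left 47.3%, 42.4% and 41.3% of the control level. At day 4 the 2-fold mark was passed narrowly, with -0.97 under quantile normalization and -0.95 with normexp correction. Between 8.58% and 8.70% of all genes were at least as far below the control on each day. The step from day 4 to day 8 was -0.20 ± 0.20, so that 84.6% of the day 8 difference was present at day 4 and 96.9% at day 6.

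No member changed by 2-fold between OSKM days. Over all genes, 2.65% were at least 2-fold lower and 2.83% higher at day 6 than at day 4, 1.01% lower and 2.43% higher at day 8 than at day 6, and 4.11% lower and 4.91% higher at day 8 than at day 4. Beyond 2 errors, Ccne1 was higher at day 6 than at day 4 and no member was lower, against 8.95% and 10.7% of all genes. Cdk4 was lower at day 8 than at day 6 and no member was higher, against 5.69% and 7.47%. From day 4 to day 8, 3 members differed by more than 2 errors: Cdk2 and Cdk4 were lower, as were 16.5% of all genes by this rule, and Ccne1 was higher, as were 14.3%. Which members did so depended on the normalization. Under quantile normalization the steps of Ccnd1, Ccnd2 and Ccnd3 were 0.42, 0.51 and 0.38, past 2 of the errors used here. That of Cdk4 was -0.21, within 2 errors. With normexp correction added, the Cdk2 step was -0.41, also within 2 errors.

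**Figure D2:**
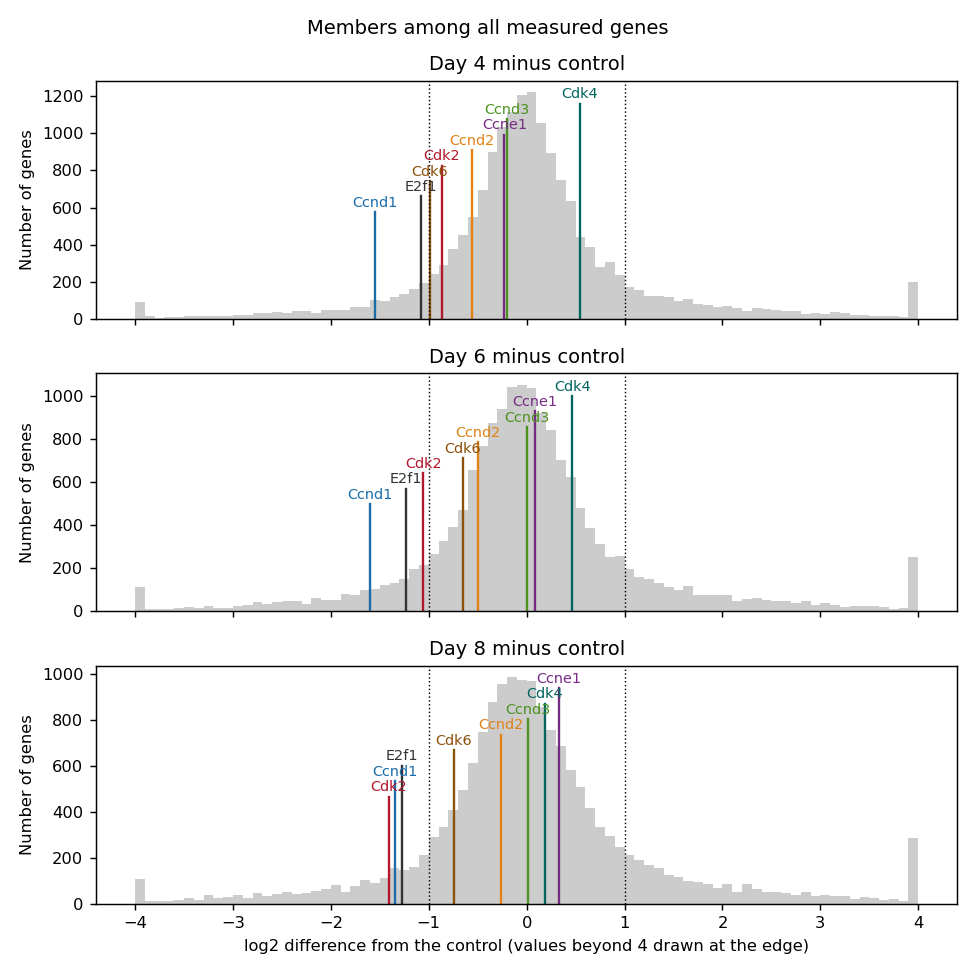
Number of genes (vertical axis) by log2 difference from the CMP control (horizontal axis) at days 4, 6 and 8, over the 16658 measured genes in grey, with values beyond 4 drawn in the outermost bars and dotted lines at a 2-fold change. Coloured lines mark the 8 measured members, and their heights only keep the names apart. Ccnd1 is the leftmost member at days 4 and 6, Cdk2 at day 8, and Cdk4 is the rightmost at days 4 and 6.

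The genes whose course was nearest to those of the 3 members past 2-fold at day 8 were found by Euclidean distance over the differences at days 4, 6 and 8, among 13759 other genes above background on all 4 arrays. Nearest to Ccnd1 were Slc17a9, a vesicular nucleotide transporter, at a distance of 0.08, Cep295nl at 0.11 and Marchf3 at 0.13. For Cdk2 they were Arpin, an inhibitor of the Arp2/3 actin nucleator, at 0.06, Hat1, a histone acetyltransferase, at 0.07, and Mcm4, a subunit of the replicative helicase, at 0.08. The genes nearest to E2f1 were Lin7c at 0.04, Wwc1 at 0.07 and Polr2l, an RNA polymerase subunit, at 0.08. All of these distances are smaller than the error of 1 difference.

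Promoter sequence was at hand for 6 of the 9 members (RefSeq, GRCm38.p6), in 7 windows of 250 bases before an annotated start, of which 4 began at the outer end of the gene. No window was given for Ccnd1, Ccnd2 or Ccne2. Shown are the windows of Cdk4 and Cdk2, kinases that lay on opposite sides of the control at day 4, and of Ccne1, whose level parted from that of its kinase. The capitals mark the E-box CACGTG, which Myc with its partner Max can bind, and an E2F motif (TTTGGCGC, TTTCCCGC, TTTGCCGC or TTTCGCGC), each looked for on both strands.
Cdk4, chr10:127063285-127063534, plus strand: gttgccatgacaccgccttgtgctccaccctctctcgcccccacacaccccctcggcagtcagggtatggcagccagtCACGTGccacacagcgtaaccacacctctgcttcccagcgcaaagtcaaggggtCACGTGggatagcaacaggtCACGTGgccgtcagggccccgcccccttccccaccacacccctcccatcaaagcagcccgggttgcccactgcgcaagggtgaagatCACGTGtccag
Cdk2, chr10:128705052-128705301, minus strand: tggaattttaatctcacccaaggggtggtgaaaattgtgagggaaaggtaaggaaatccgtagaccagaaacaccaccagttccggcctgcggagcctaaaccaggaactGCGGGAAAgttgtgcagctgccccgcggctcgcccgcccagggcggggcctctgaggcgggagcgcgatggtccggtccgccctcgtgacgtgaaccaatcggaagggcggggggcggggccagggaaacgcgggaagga
Ccne1, chr7:38107491-38107740, minus strand: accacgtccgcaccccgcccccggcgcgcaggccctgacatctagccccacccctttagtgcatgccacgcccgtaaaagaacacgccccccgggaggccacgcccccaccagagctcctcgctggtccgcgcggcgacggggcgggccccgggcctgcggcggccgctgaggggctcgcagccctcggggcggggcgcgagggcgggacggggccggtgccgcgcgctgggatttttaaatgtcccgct
The Cdk4 window held 4 E-boxes, at 172, 118, 98 and 11 bases before the start, and 2 matches to the Klf motif GGGTGTG. The Cdk2 window held 1 E2F match, 140 bases before the start, read on the opposite strand, and the Ccne1 window held neither an E-box nor an E2F match of these letters. Matches to the Sp1 motif GGGCGG numbered 5 in Cdk2, 4 in Ccne1 and 1 in Cdk4. Over all 32851 windows of this length, 6.02% held the E-box, 1.86% the E2F motif, 6.93% the Klf motif and 32.7% the Sp1 motif, and among the 7 windows of members these were in 2, 1, 1 and 6. No match of one motif overlapped that of another. These are matches of letters in a window and do not show that a factor binds there.

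Beyond the members, 6 groups of genes of the same pathway were followed. The genes that E2F switches on for S phase were the group that moved most in one direction. Of 30 such genes, all measured, 10, 20 and 27 were at least 2-fold lower than the control on days 4, 6 and 8, against 9.57%, 11.5% and 11.7% of all genes. None was 2-fold higher on any day, against 12.1%, 13.0% and 14.4%. Their median difference was -0.81, -1.24 and -1.71, beside -0.01, -0.04 and -0.03 for all genes. Tk1, the thymidine kinase of dividing cells, read 3455 in the control and 1408, 796 and 401 at days 4, 6 and 8, a difference of -3.19 ± 0.14 at day 8. Mcm5, a helicase subunit, differed by -2.71 ± 0.20 and Mybl2, a transcription factor of the late cycle, by -2.63 ± 0.15. Uhrf1, chosen after its value was seen, was the lowest of the group at day 8. It differed by -3.40 ± 0.25, though not all of its 2 probes were well above background on that array.

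The targets moved on after E2f1 had nearly reached its day 8 level. By day 4 the median target had covered 47.4% of its day 8 difference and by day 6 72.5%, beside 84.6% and 96.9% for E2f1. Cdk2, at 61.6% and 75.2%, lay between them at both days. With 1 array per day these courses were not tested against each other. Ccne1, itself known as an E2F target, was 0.33 above the control at day 8, but only 0.07 when arrays were scaled to their median. E2f1 lost 1.61 ± 0.25 more than Ccne1 on that day. None of the 30 targets was above the control on any day.

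**Figure D3:**
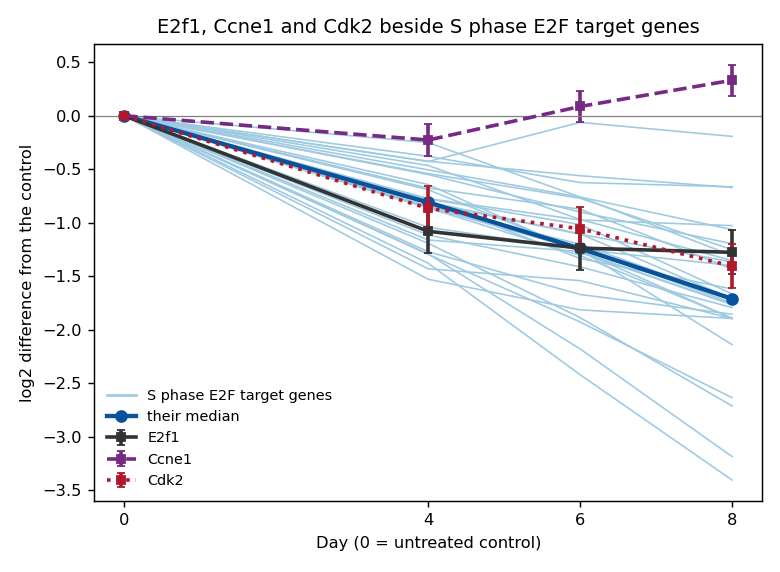
Log2 difference from the CMP control (vertical axis) against the day of the array (horizontal axis, 0 being the untreated control) for the 30 S phase E2F target genes (thin lines), their median (thick blue line), E2f1, Ccne1 and Cdk2. Bars are ± 1 SD of the scanner's error model. The median of the targets goes on down to -1.71 at day 8, E2f1 stays between -1.24 and -1.28 from day 6, and Ccne1 ends at 0.33.

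The proliferation markers moved with these genes. All 6 measured markers of dividing cells were at least 2-fold lower at days 6 and 8 (11.5% and 11.7% of all genes), and their summed level went from 134 times the 75th percentile in the control to 56.5, 34.3 and 20.9. At day 8 they ran from -1.53 for Mki67, a protein of cycling nuclei, to -3.52 for Plk1, a mitotic kinase. The part of a lower share of dividing cells in the values of Ccnd1, Cdk2 and E2f1 was not tested.

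The other members of the E2F family and their DP partners did not move as a group. Of 9 genes, 1 was at least 2-fold lower at day 8 and 1 higher, against 11.7% and 14.4% of all genes, with a median of -0.21. E2f8, a repressor that acts late in S phase, read 1232 in the control and 450, 350 and 251 at days 4, 6 and 8, or -2.37 ± 0.20 at day 8. E2f7, a repressor of the same kind, differed by -0.97 ± 0.15. E2f2, an activator like E2f1, went the other way, reading 313 in the control and 464, 610 and 664 on those days, or 1.00 ± 0.20 at day 8. It passed 2-fold only narrowly and did not pass it under quantile normalization, with normexp correction or when arrays were scaled to their median. E2f5 differed by 0.02 ± 0.21.

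The other cyclins, kinases and kinase regulators of the cycle were lower in part. This group mixes genes of mitosis with genes such as Ccnc, Ccng1, Ccnh, Cdk5 and Cdk8 that act outside it. Of its 20 genes 19 were measured, Ccna1 being the other. At day 8, 8 were at least 2-fold lower and none higher, against 11.7% and 14.4% of all genes, with a median of -0.57. Ccnb1 and Ccnb2, the B-type cyclins of mitosis, each differed by -3.03, with errors of 0.12 and 0.20, and Cdc25c, the phosphatase that activates their kinase, by -2.76 ± 0.22. Cdk7, of the kinase complex that activates other Cdks, differed by 0.35 ± 0.16. Each of the mitotic genes named here was farther below the control than any G1 member.

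Among the Cdk inhibitors and pocket proteins, 3 of 10 genes were at least 2-fold higher at day 8 and 1 was lower, against 14.4% and 11.7% of all genes. The median of the 10 was 0.29. Cdkn1c (p57) read 104 in the control and 5648, 5578 and 2802 at days 4, 6 and 8, a difference of 4.68 ± 0.21 at day 8. Cdkn2a, the gene of p16 and p19Arf, differed by 1.90 ± 0.14, and Cdkn2b (p15), which blocks Cdk4 and Cdk6 as p16 does, by 1.06 ± 0.14. Cdkn2d (p19Ink4d), of the same family, went the other way with -1.88 ± 0.20, and Rbl1, the pocket protein p107, with -0.82 ± 0.15. Inhibitors that bind the same kinases thus lay on both sides of the control.

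The genes that turn over cyclins D and E moved little. Of 14 genes 2 were at least 2-fold lower at day 8 and none higher, against 11.7% and 14.4% of all genes, with a median of -0.24. Both were small Cdk-binding subunits, Cks2 at -1.86 ± 0.20 and Cks1b at -1.22 ± 0.14, which also act with Cdks outside cyclin turnover. Cul1, the scaffold of the ubiquitin ligase that takes up cyclin E, differed by -0.54 ± 0.20 and Cdc34, a ubiquitin-conjugating enzyme, by 0.29 ± 0.20.

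The transcription factors known to act on the cyclin D genes were spread widely. Of 22 genes, 8 were at least 2-fold lower at day 8 and 4 higher, against 11.7% and 14.4% of all genes, with a median of -0.53. Fos, a part of AP-1, differed by -4.80, -2.61 and -3.83 (each ± 0.07) at days 4, 6 and 8, so its level swung between the OSKM arrays. At day 8 Myc differed by -3.08 ± 0.15 and Foxm1, a factor of proliferating cells, by -2.99 ± 0.19. Tcf7, a partner of beta-catenin, differed by 2.26 ± 0.29. Whether the Myc probe also read the virus-borne gene was not tested. Mycn, chosen after its value was seen, was at least 85.1-fold lower at day 8, where it was not well above background.

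**Figure D4:**
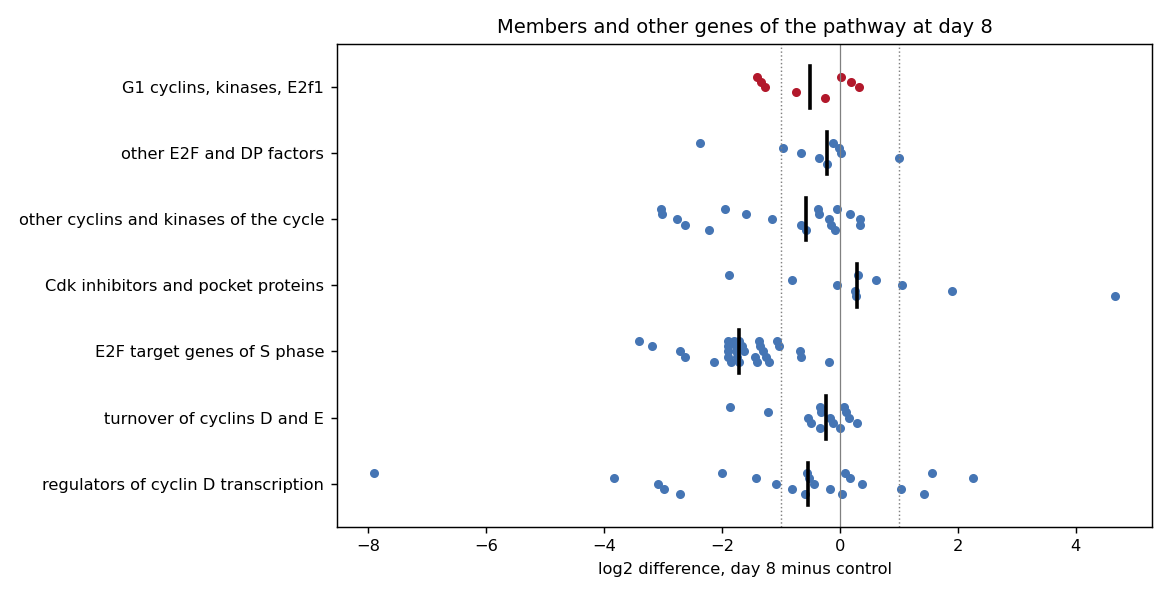
Log2 difference between day 8 and the CMP control (horizontal axis) for the 8 measured members (red) and the measured genes of 6 pathway groups (blue), 1 point per gene, with a black bar at each group's median and dotted lines at a 2-fold change. The E2F target genes of S phase have the lowest median, -1.71, the members lie between -1.41 and 0.33, and the point farthest to the left is Mycn, whose day 8 signal was not well above background.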

How the data were processed

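The labels and the study's methods describe RNA from untreated CMPs and from OSKM-CMPs at days 4, 6 and 8, labelled with Cy3 and hybridised to SurePrint G3 mouse arrays. The deposited scanner files hold, per spot, a background-subtracted intensity (processed signal), its error and flags, made by the authors with Feature Extraction (10.7.3.1 per the file headers, 9.5.3 in the submitters' processing notes). The authors' deposited log2 table, made in GeneSpring GX, equals the log2 of that signal shifted by a constant per array (offsets of 8.60 to 8.68) and served as an alternative.

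Outlier spots (87 to 106 per array) were left out, log2 signals were averaged over the spots of a probe, and the array's 75th percentile was subtracted. Of 55681 probes, 35546 were well above background on at least 1 array and were kept. Kept probes were named through RefSeq (GRCm38.p6) by accession, symbol or synonym, and 22978 of them gave 16658 genes, each the mean of its probes. Over all probes, accessions named 26762, symbols a further 3819 and synonyms 639, which left 24461 unnamed. Probe positions are those in the files, on mm9, for which no annotation of exons or UTRs was used here, and promoter windows are on GRCm38.p6. Errors over probes were combined as independent. No comparison had replicates, so none was tested, and genes were counted at a 2-fold change. The number of arrays limits the precision.

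The members and gene lists were chosen with earlier results of these data known. Named were all members, up to 3 genes of each list with the largest day 8 difference among those above background on both arrays and the 1 gene farthest in the other direction, and the 3 genes nearest to each member past 2-fold at day 8. Others were added after their values were seen (Uhrf1, Mycn, Cdkn2b and the cell type markers given with values). Alternatives were quantile normalization, normexp correction (offset of 50), the array median as scale, the authors' table, filters on dim probes, the brightest probe of a gene and thresholds of 1.5-fold and 3-fold. The code was tested on simulated data. Python 3.11.15, numpy 2.4.6, pandas 2.3.3, R 4.3.3, limma 3.58.1 and matplotlib 3.10.9 were used.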

Additional observations from a re-analysis of the deposited data

Results flagged for a closer look

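A further probe on the Cdk4 gene was listed in the array files under an Ensembl transcript identifier and not under the gene's name, so it is not among the probes described above. It drew attention as a signal outside the main measurement that stood above the control. Its difference from the CMP control was 0.42, 0.42 and 0.10 on days 4, 6 and 8. The named Cdk4 probes gave 0.54, 0.46 and 0.19 on average on these days.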

How the results depend on the processing

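No alternative turned a member past 2-fold to the other side of the control. Of 48 member differences, 12 moved by more than 1 error under quantile normalization, 16 with normexp correction and quantile normalization, and 12 with the array median as scale. The authors' table and the filters on dim probes could hardly move a measured member, since the table differs by a constant per array and every kept member probe was well above background throughout. When arrays were scaled to their median, the difference of the typical gene became -0.15, -0.17 and -0.30 at days 4, 6 and 8, and as this scale differs from the reported one by a constant per array, taking the shift out returns the reported values. On that scale 4 members were at least 2-fold lower at day 4 (11.7% of all genes), the member medians were -0.86, -0.71 and -0.77, and the group medians at day 8 were -0.48 (E2F and DP factors), -0.84 (other cyclins and kinases), 0.026 (Cdk inhibitors and pocket proteins), -1.98 (E2F targets of S phase), -0.51 (cyclin turnover) and -0.80 (regulators of cyclin D), with 2 inhibitors lower and, among E2F and DP factors, 2 lower and 0 higher. All genes split into 16.9% lower and 11.3% higher at day 8 on that scale. Under quantile normalization the member medians were -0.48 at day 6 and -0.40 at day 8, the medians of E2F targets, cyclin turnover and regulators -1.59, -0.11 and -0.42, and 2 E2F and DP factors were lower and 0 higher (12.2% and 13.1% of all genes). Normexp background correction with quantile normalization left 1 member 2-fold lower at day 4 (4.77% of all genes), member medians of -0.55, -0.35 and -0.26, medians of -1.25 (E2F targets), -0.073 (cyclin turnover) and -0.29 (regulators), 0 E2F and DP factors higher, 1 turnover gene lower and 2 regulators higher. It lowered the share of all genes past 2-fold at day 8 to 6.56% lower and 6.47% higher. Without the filter on dim probes, which lets Ccne2 in, the member medians were -0.56 at day 4 and -0.26 at day 8. With the brightest probe of each gene, the E2F and DP median was -0.36 with 2 genes lower (11.7% of all genes). At a 1.5-fold threshold 4 members were lower at day 4 (18.2% of all genes), and at day 8 3 E2F and DP factors and 2 inhibitors were lower (21.3% of all genes). At 3-fold the members lower numbered 0, 1 and 0 at days 4, 6 and 8 (4.82%, 5.99% and 6.45% of all genes), and 0 E2F and DP factors were higher, 1 turnover gene lower and 1 regulator higher at day 8, where 8.66% of all genes were higher. The cause of these moves was not tested.

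With 1 array per condition, on 1 slide and in 1 scan, the spread between cultures is unknown, and leaving out an array removes its condition. No paired analysis was possible because no condition had more than 1 array. Ccne2 was not well above background, and Cdk2, Cdk6 and the dimmer Ccne1 probe had signals under the 75th percentile of their arrays, where background takes a larger part of the signal. The values of Ccnd1, Ccnd2, Cdk2, Cdk6 and E2f1 each rest on 1 probe.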
